A study of Mus musculus with 4 samples.

Results

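The 9 genes described here, Lpcat1 to Lpcat4 and Agpat1 to Agpat5, encode the lysophospholipid acyltransferases of the colon microarray data set on group III secreted phospholipase A2 (Pla2g3). They were chosen by name: every non-control spot whose gene symbol on the array was a listed member was taken, whatever its signal. This gave 11 probes for 9 of 22368 named genes, or 11 of 39423 probes. Of these, 10 probes for 8 genes were well above background on all 4 arrays, and the probe for Lpcat4 was not well above background on any.

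Acyltransferases of this kind attach a fatty acid to a lysophospholipid, a phospholipid that has lost a fatty acid chain. Secreted phospholipase A2 enzymes such as Pla2g3 run the opposite step and release a fatty acid and a lysophospholipid, so the 2 enzyme groups form a deacylation and reacylation cycle that sets which fatty acids a membrane holds. The Agpat enzymes act on lysophosphatidic acid and make phosphatidic acid, the precursor of triglycerides and of all glycerophospholipids, whereas the Lpcat enzymes act mainly on lysophosphatidylcholine.

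RNA from mouse colon was pooled within each group and hybridized to 4 single-color (Cy3) arrays on 1 slide, 1 array per group. All mice were males of strain B6.129 (n3), 42 weeks old, and either Pla2g3+/+ or knockout littermates (Pla2g3-/-). The vehicle groups received saline, and the other groups received the colon carcinogen azoxymethane (AOM) by weekly intraperitoneal injection of 10 mg/kg for 6 weeks, with the colon taken 28 weeks after the last injection. The deposited description gives pools of 3 to 5 mice and names the AOM samples as cancer tissue, and the methods describe the whole descending colon, so tumor and surrounding wall can be present in different shares in each pool. No group has a replicate, so no difference could be tested. The error given for a log2 ratio is the technical error of the pair of spots in the error model of Feature Extraction, the scanner software, and it holds nothing of the spread between mice. For bright probes it comes almost wholly from a multiplicative error of 0.1 set in that software. Beyond or within the error means more or less than 1 such error.

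A level below is the background-subtracted signal of a probe over the 75th percentile of the signals on that array. Ratios between groups are on the log2 scale unless given as a fold. Of 43020 non-control spots per array, 64.8% to 69.4% were well above background and 0 were saturated. The 75th percentile was a signal of 645.6 and 649.8 on the vehicle arrays and 1309 and 1169 on the AOM arrays of Pla2g3+/+ and Pla2g3-/- mice. Pla2g3 itself went against the labels: its brightest probe gave signals of 343 and 426 with vehicle and 304 and 1632 after AOM for Pla2g3+/+ and Pla2g3-/-. After scaling this was 1.23-fold and 6.01-fold higher on the arrays labeled Pla2g3-/-. Its dimmer probes were 6.66-fold and 2.76-fold higher there after AOM. With vehicle they were 1.06-fold and at least 2.31-fold higher, the latter with a Pla2g3+/+ signal not well above background. Whether the probes lie in the deleted part is not given in the sources used here. Every direction below follows the labels.

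The Pla2g3+/+ AOM array stood apart from the other 3 in its cell type markers. The summed level of 8 smooth muscle genes was 517, 542 and 498 on the Pla2g3+/+ vehicle, Pla2g3-/- vehicle and Pla2g3-/- AOM arrays and 31.2 on the Pla2g3+/+ AOM array. Over 7 goblet cell genes the sums were 1498, 1414, 585 and 116 in the same order, and over 7 mature colonocyte genes 387, 436, 271 and 63.6. Conversely, 8 Wnt target genes of colon tumors summed to 39.3 on the Pla2g3+/+ AOM array and to between 4.64 and 5.11 on the others. The level of 6 mast cell genes summed to 18.3 on that array and 1.41 to 1.87 on the others. Mcpt1 made up 8.13 and Mcpt2 7.88 of the 18.3, and Cpa3 and Tpsb2 were also highest there. Kit went the other way, with its lowest level (0.474) on the Pla2g3+/+ AOM array. Cma1 was higher on the Pla2g3-/- AOM array (0.207) than on the Pla2g3+/+ AOM array (0.167). General epithelial markers (Epcam, Cdh1, Vil1 and 3 keratins) were present on every array, with sums of 333 to 453. In pooled tissue, fewer cells of a type and less RNA per cell cannot be told apart. The KO/WT ratio after AOM and the AOM/vehicle ratio of Pla2g3+/+ mice both rest on that array, and the other 2 comparisons do not use it.

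The probes are 60 bases long and lie, on mouse build mm9, on chromosome 17 from 12412423 to 12412482 (Agpat4, plus strand) and from 34750307 to 34750366 (Agpat1, plus), and on chromosome 8 from 95443101 to 95443160 (Lpcat2, plus). Agpat2 has probes on chromosome 2 from 26448610 to 26448669 and from 26449107 to 26449166 (both minus), and Lpcat1 on chromosome 13 from 73653193 to 73653252 and from 73651927 to 73651986 (both plus). The Lpcat4 probe lies on chromosome 2 from 112087195 to 112087254 (plus). The remaining probes are on chromosome 10 from 77736356 to 77736415 (Agpat3, minus), chromosome 8 from 18881794 to 18881853 (Agpat5, plus) and chromosome 6 from 124653374 to 124653542 (Lpcat3, plus). The Lpcat3 coordinates span 169 bases, more than the 60 of the probe. Exon and UTR positions were not assigned, since an annotation of mm9 was not used here.

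The sequences behind the members that moved, the genes with 2 probes and the undetected member are given 5′ to 3′. Capitals mark AATAAA, the hexamer of the usual polyadenylation signal, or a final TAG, which is a stop codon if it is in frame. Where 30 bases are given they are the last 30 of the probe.
Agpat4: agatgactaaattatgcctccaaataagaa
Agpat1: gcaactgaaAATAAAgagaaagagagacgt
Lpcat2: atttgaggttttgAATAAAgaaccgattta
Lpcat4: tataaatataaatatatatctAATAAAaaa
Agpat2, brighter probe: ttggttctttttctataaatgaactctcag
Agpat2, dimmer probe: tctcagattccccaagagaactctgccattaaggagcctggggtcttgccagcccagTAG
Lpcat1, brighter probe: gtttcctaagctttggaatcttgtttttta
Lpcat1, dimmer probe: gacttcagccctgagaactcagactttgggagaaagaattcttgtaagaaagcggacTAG

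In the letters as printed, AATAAA was present in 3 of the 11 member probes (27.3%) and in 12.6% of all 39423 probes, and the opposite strand was not searched. The Lpcat4 probe holds A or T at 51 of 60 positions, a GC content of 15.0% where the median probe has 41.7%. Only 24 probes on the array have a GC content as low, and 18 of them (75%) were not well above background on any array, compared with 24.7% of all probes. GC content of the members otherwise reached up to 55%, with a median of 40% over the 11 probes.

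**Figure D1:**
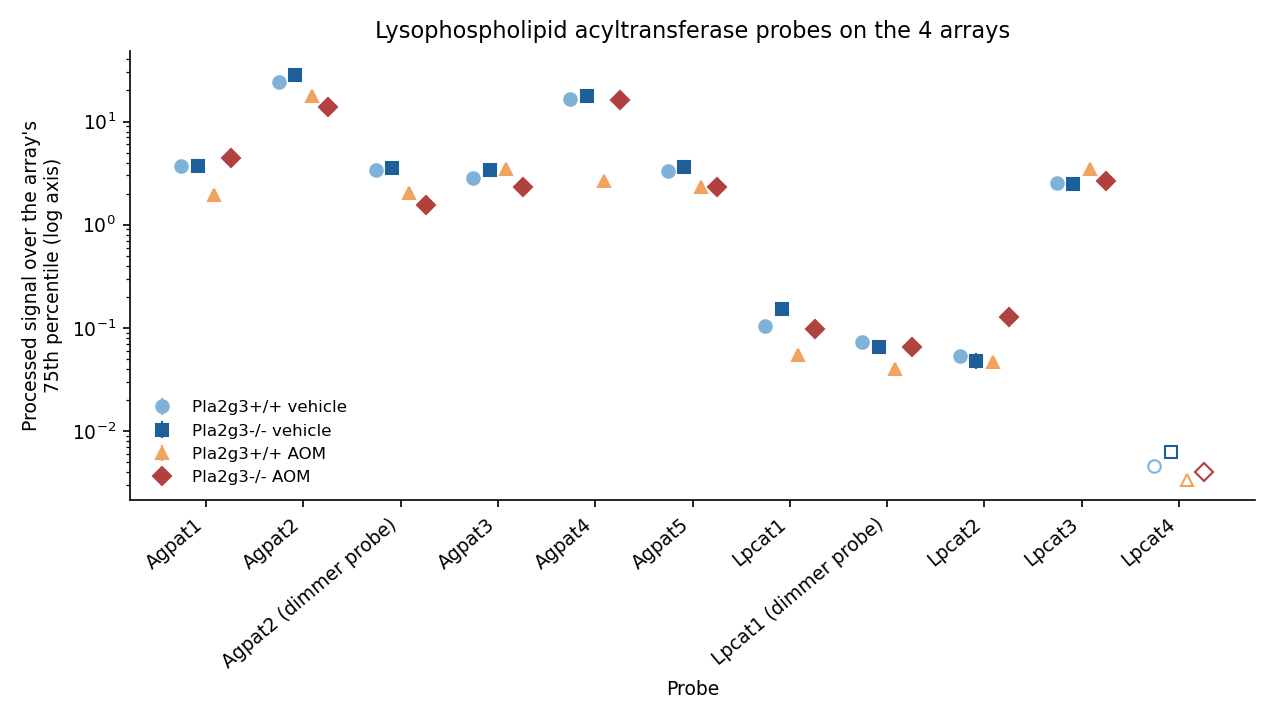
Level of each member probe on the 4 arrays, as the processed signal over the 75th percentile of the array (log axis). Symbols stand for the 4 pools, bars for the technical error of the spot (mostly smaller than the symbol), and open symbols for a signal not well above background. Agpat4 lies between 16.1 and 17.7 on 3 arrays and at 2.62 on the Pla2g3+/+ AOM array, and Lpcat2 is highest, at 0.128, on the Pla2g3-/- AOM array.

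Among the Agpat genes, Agpat4 differed most between arrays. This enzyme transfers acyl chains to lysophosphatidic acid and is known best from brain. Its level was 16.6 in Pla2g3+/+ and 17.7 in Pla2g3-/- mice with vehicle, and 2.62 in Pla2g3+/+ and 16.1 in Pla2g3-/- mice after AOM. The Pla2g3+/+ AOM array was thus low and the other 3 lay within 1.1-fold of each other, inside the technical error. Agpat4 was 6.33-fold lower after AOM than with vehicle in Pla2g3+/+ mice (log2 ratio -2.66, technical error 0.20) and 6.15-fold higher in Pla2g3-/- than in Pla2g3+/+ mice after AOM (2.62). With vehicle the KO/WT log2 ratio was 0.09, and AOM/vehicle in Pla2g3-/- mice was -0.13, both within the error. The latter turned to 0.35 under quantile normalization and 0.71 without scaling, both beyond the error. The low array is the one whose smooth muscle, goblet cell, colonocyte and enteric neuron and glia sums were low. For KO/WT after AOM, 8 of 8 smooth muscle, 7 of 7 goblet cell, 6 of 7 colonocyte and 6 of 7 enteric neuron and glia genes were over 2-fold higher, and the colonocyte gene Slc9a3 went the other way (-1.78). The part of cell composition in the Agpat4 value was not tested, and with 1 array per group composition, genotype and treatment cannot be told apart.

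Agpat1, which makes phosphatidic acid in the endoplasmic reticulum of most cells, had the same low array. Levels were 3.67 and 3.73 with vehicle and 1.95 and 4.42 after AOM for Pla2g3+/+ and Pla2g3-/- mice. The vehicle arrays did not differ beyond the error, the Pla2g3-/- AOM array was the highest and the Pla2g3+/+ AOM array the lowest. The KO/WT ratio after AOM was 2.27-fold (log2 1.18, technical error 0.20), and AOM/vehicle was 1.88-fold lower in Pla2g3+/+ mice (-0.91) and 1.19-fold higher in Pla2g3-/- mice (0.25). Without scaling between arrays the AOM/vehicle log2 ratio of Pla2g3+/+ mice turned to 0.11. The KO/WT log2 ratio after AOM stayed between 1.02 and 1.26 under all scalings and background corrections tried.

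Agpat2, the phosphatidic acid-making enzyme of fat storage whose loss causes lipodystrophy, was lower on both AOM arrays. Its brighter probe gave 24.4 and 28.0 with vehicle and 17.7 and 13.9 after AOM for Pla2g3+/+ and Pla2g3-/- mice. The dimmer probe, 497 bases away, gave 3.40 and 3.56 with vehicle and 2.01 and 1.57 after AOM. On both probes the Pla2g3-/- AOM array was the lowest, the Pla2g3+/+ AOM array came next and the vehicle arrays did not differ beyond the error. In Pla2g3-/- mice AOM/vehicle was 2.01-fold lower by the brighter probe and 2.27-fold lower by the dimmer (-1.19), and under quantile normalization the log2 ratios were -0.53 and -1.04. In Pla2g3+/+ mice the log2 ratios were -0.46 and -0.76, and the brighter probe turned to 0.19 under quantile normalization and 0.56 without scaling. The summed level of 7 adipocyte genes was 18.6 and 38.8 with vehicle and 2.28 and 5.58 after AOM for Pla2g3+/+ and Pla2g3-/- mice. It was thus also lower on both AOM arrays, on which Lep was not well above background, as on the vehicle arrays, and Adipoq and Plin1 were not on the Pla2g3+/+ AOM array. Its part in the Agpat2 value was not tested.

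Agpat3 and Agpat5 stayed within 2-fold in all 4 comparisons. Agpat3, an enzyme of the endoplasmic reticulum and Golgi, had levels of 2.84 and 3.37 with vehicle and 3.48 and 2.32 after AOM for Pla2g3+/+ and Pla2g3-/- mice. The highest were the Pla2g3+/+ AOM and Pla2g3-/- vehicle arrays, which did not differ beyond the error. The KO/WT log2 ratio was 0.25 with vehicle and -0.58 after AOM. Agpat5, a mitochondrial member, had levels of 3.33 and 3.59 with vehicle and 2.31 and 2.34 after AOM. Each genotype pair was within the error, and the AOM arrays were lower (-0.53 in Pla2g3+/+ and -0.62 in Pla2g3-/- mice), although both ratios turned positive without scaling, to 0.49 and 0.23.

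Among the Lpcat genes, Lpcat2 had the largest ratio after AOM. Lpcat2 is the acyltransferase of inflammatory cells that also makes platelet-activating factor. Its level was 0.053 and 0.048 with vehicle and 0.047 and 0.128 after AOM for Pla2g3+/+ and Pla2g3-/- mice. The Pla2g3-/- AOM array was high and the other 3 did not differ beyond the error. KO/WT after AOM was 2.73-fold (log2 1.45) and AOM/vehicle in Pla2g3-/- mice was 2.65-fold (1.41), with a technical error of 0.25 and 0.30. This signal is close to background. With the normexp background correction described under the processing, the KO/WT log2 ratio after AOM was between 0.58 and 0.89, higher but under 2-fold. Under the same correction AOM/vehicle in Pla2g3-/- mice was -1.46 in 1 fit and 0.31 to 0.72 in the others, so neither ratio was over 2-fold higher. Sums over 7 macrophage genes were 9.25, 11.4, 18.3 and 8.49 on the Pla2g3+/+ vehicle, Pla2g3-/- vehicle, Pla2g3+/+ AOM and Pla2g3-/- AOM arrays. Over 7 neutrophil genes they were 55.6, 54.7, 94.2 and 62.1 in the same order. Csf3r made up 44.4 to 53.8 of the neutrophil sum, and S100a9 made up 35.7 on the Pla2g3+/+ AOM array. For KO/WT after AOM, 5 of 6 macrophage genes with a value were over 2-fold lower and 0 higher. Of 7 neutrophil genes, 4 were lower and 1 (Ly6g) higher. The macrophage gene Mrc1 had levels of 1.22 on the Pla2g3+/+ AOM and 1.58 on the Pla2g3-/- AOM array. Cd163 was not well above background on any array, and Mmp8 only on the Pla2g3+/+ AOM array. The summed level of 8 squamous epithelium genes was 23.7 on the Pla2g3-/- AOM array and 4.87 to 6.50 on the others. Krt5 made up 15.3 of it, and without Krt5 the sums were 8.44 on the Pla2g3-/- AOM array and 4.81 to 6.48 on the others. For KO/WT after AOM, 2 of the 7 genes with a value were over 2-fold higher and 1 (Krt4) lower, and Sprr3 was not well above background on any array. The part of these genes in the Lpcat2 value was not tested.

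Lpcat1, known from lung surfactant synthesis, was lowest on the Pla2g3+/+ AOM array by both probes. The brighter probe gave 0.103 and 0.151 with vehicle and 0.054 and 0.097 after AOM, and the dimmer, 1266 bases away, 0.073 and 0.065 with vehicle and 0.040 and 0.065 after AOM, for Pla2g3+/+ and Pla2g3-/- mice. The KO/WT log2 ratio after AOM was 0.84 by the brighter and 0.71 by the dimmer probe. With normexp and quantile normalization these ratios were 0.40 and 0.26, the latter close to its technical error of 0.25. For AOM/vehicle in Pla2g3+/+ mice the log2 ratios were -0.93 and -0.87, which turned to 0.09 and 0.15 without scaling. In Pla2g3-/- mice the brighter probe gave -0.64, which turned to 0.20 without scaling. The dimmer probe did not repeat the lower value there, with -0.0003, within its error of 0.26, and 0.85 without scaling. With vehicle the probes differed: the brighter gave 0.55, beyond its technical error of 0.22, and the dimmer -0.16, within its error of 0.26. For comparison, the disagreement between 2 probes of a gene over the whole array had a median of 0.16 on the log2 scale in that comparison. Its 90th percentile was 0.50, and the Lpcat1 probes lay further apart than that. These reference values cover probes of any brightness, whereas both Lpcat1 probes lie near background.

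Lpcat3, the main lysophosphatidylcholine acyltransferase of the intestinal epithelium, where it makes polyunsaturated phosphatidylcholine, varied least of the 3 detected Lpcat genes. Its level was 2.56 and 2.47 with vehicle and 3.50 and 2.64 after AOM for Pla2g3+/+ and Pla2g3-/- mice. The Pla2g3+/+ AOM array was the highest and the other 3 lay within 1.07-fold of each other. AOM/vehicle in Pla2g3+/+ mice was 0.45 on the log2 scale and KO/WT after AOM -0.41. Lpcat4, which acylates several lysophospholipids, was not well above background anywhere, with levels of 0.005 and 0.006 with vehicle and 0.003 and 0.004 after AOM, and it has no ratio.

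Counted together by the brightest probe, 0 of the 8 measured genes were past 2-fold between genotypes with vehicle, where 3.24% of 16391 genes were (1.92% higher and 1.32% lower in Pla2g3-/- mice). After AOM, 3 were over 2-fold higher in Pla2g3-/- mice (Agpat1, Agpat4 and Lpcat2) and 0 lower, against 15.1% of 17194 genes higher and 12.9% lower (28.0% in all). For AOM/vehicle in Pla2g3+/+ mice 0 were higher and 1 lower (Agpat4), against 15.1% and 22.4% of 17275 genes, and in Pla2g3-/- mice 1 was higher (Lpcat2) and 1 lower (Agpat2), against 9.65% and 15.1% of 16514 genes. The 8 genes had a median log2 ratio of 0.10 for KO/WT with vehicle, 0.43 for KO/WT after AOM, -0.49 for AOM/vehicle in Pla2g3+/+ and -0.34 in Pla2g3-/- mice, where the medians over all genes measured on both arrays were -0.01, 0.04, -0.16 and -0.10. The AOM arrays were brighter as a whole, and without scaling the all-gene medians of AOM/vehicle moved to 0.86 in Pla2g3+/+ and 0.75 in Pla2g3-/- mice. Among the detected probes, the Pla2g3+/+ AOM value lay below the other 3 arrays for Agpat1, Agpat4, Agpat5, Lpcat2 and both probes of Lpcat1. It lay above them for Agpat3 and Lpcat3 and among them for both probes of Agpat2. The share of all probes in each position was not computed, so these positions are not read as a trait of the members. For Agpat3, Agpat5 and Lpcat2 the nearest of the other arrays was within the technical error.

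**Figure D2:**
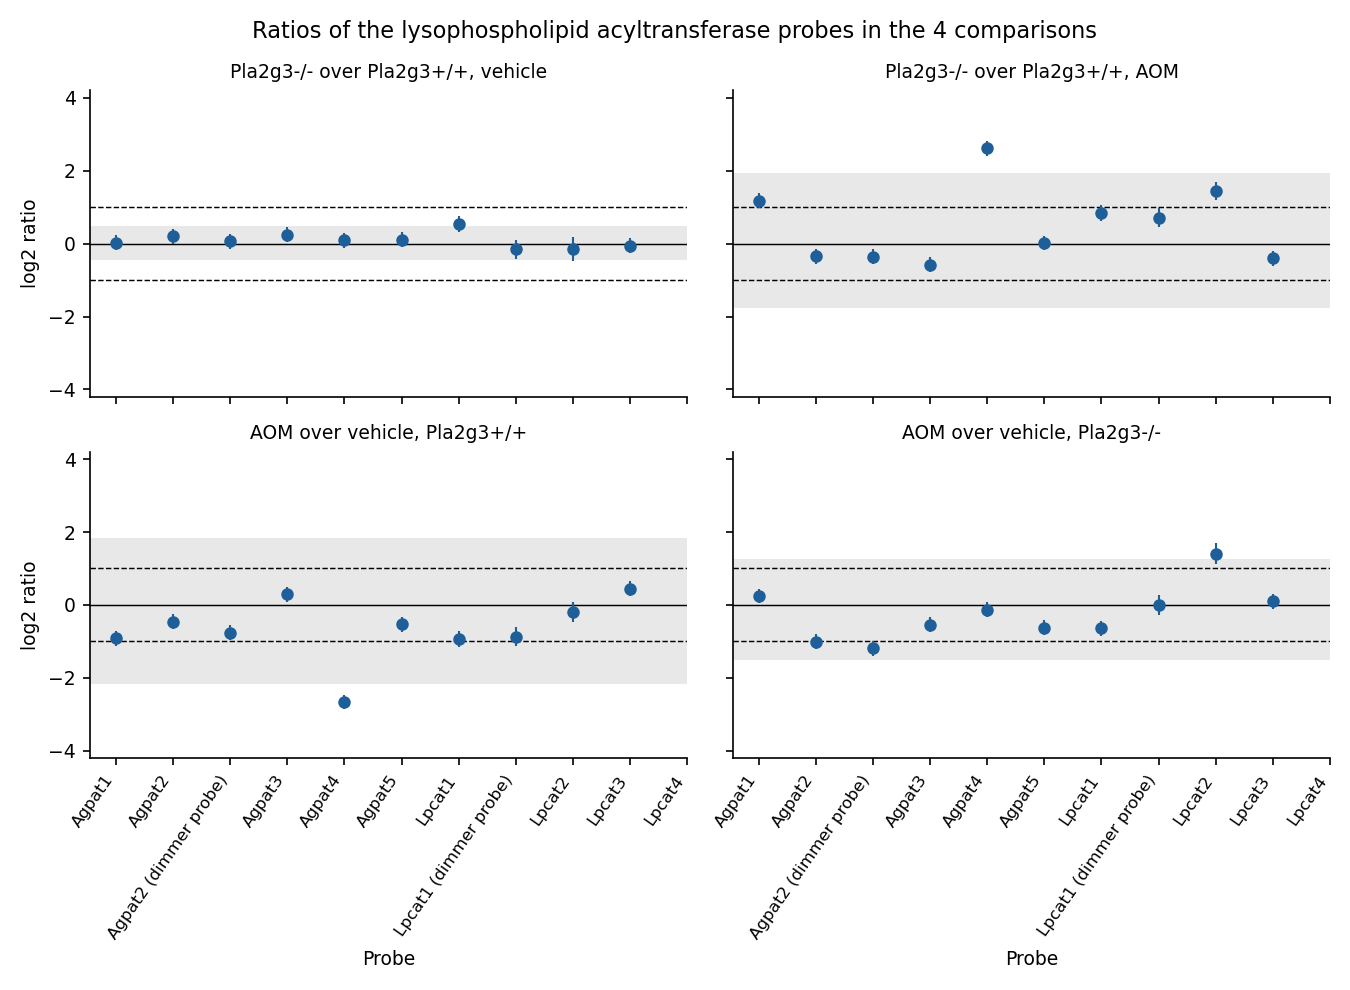
Log2 ratio of each member probe in the 4 comparisons, with bars for the technical error, dashed lines at 2-fold and a gray band from the 5th to the 95th percentile of all genes measured on both arrays. Lpcat4 has no ratio. For KO/WT with vehicle all points lie inside the 2-fold lines, and the brighter Lpcat1 probe (0.55) lies outside the band. For KO/WT after AOM, Agpat4 (2.62) is the member outside the band. For AOM/vehicle the members outside it are Agpat4 (-2.66) in Pla2g3+/+ and Lpcat2 (1.41) in Pla2g3-/- mice.

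The marker lists were set beside the members array by array. Agpat4 had a level on the Pla2g3+/+ AOM array that was 0.158 times that with vehicle, and the smooth muscle and colonocyte sums were lower there as well. The epithelial sum differed less, with 333 on that array against 447 with vehicle. The sum over 7 enteric neuron and glia genes was 16.8 and 14.9 with vehicle and 4.83 and 10.6 after AOM for Pla2g3+/+ and Pla2g3-/- mice, with Gfap not well above background on the Pla2g3+/+ AOM array. Pancreatic acinar genes summed to 11.4 on the Pla2g3-/- vehicle array and to at most 0.358 elsewhere. All 7 of these genes were over 2-fold higher for KO/WT with vehicle, where 0 members were past 2-fold. All 7 were over 2-fold lower for AOM/vehicle in Pla2g3-/- mice (median log2 ratio -5.37), the comparison in which Agpat2 was past 2-fold lower and Lpcat2 higher, and their part in those values was not tested.

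**Figure D3:**
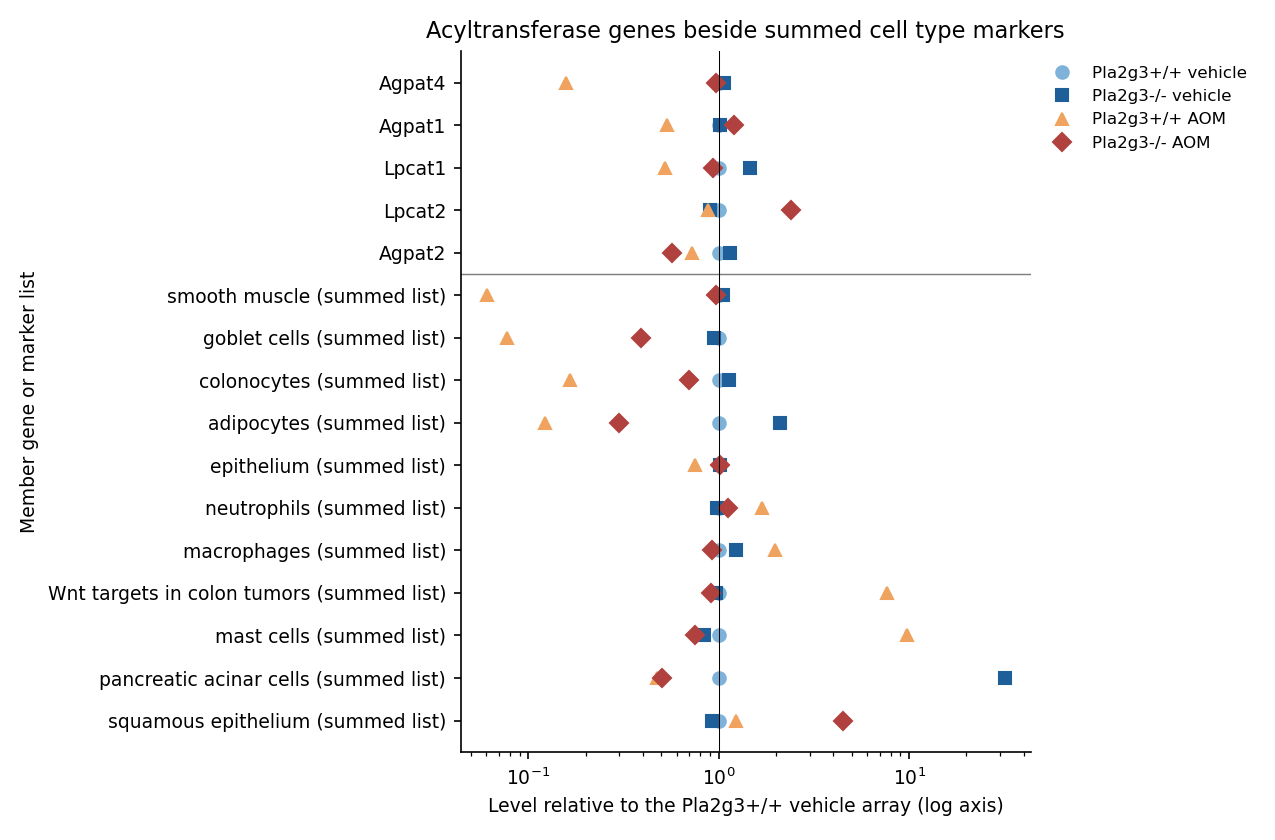
Levels of 5 member genes (above the line, brightest probe) and summed levels of marker lists on each array, all relative to the Pla2g3+/+ vehicle array (log axis). Agpat4, Agpat1 and Lpcat1 and the smooth muscle, goblet cell and colonocyte sums are lowest on the Pla2g3+/+ AOM array, and Lpcat2 and the squamous epithelium sum, the latter mostly Krt5, are highest on the Pla2g3-/- AOM array.

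Profiles across the 4 arrays were compared for the 2 members with the widest ranges, each as mean-centered log2 levels. The 5 genes nearest to Agpat4 were Fbxl16, Acsm3, Cryl1, Maoa and Mtus2, at distances of 0.08 to 0.16 on the log2 scale, and 99 of the 14787 genes compared lay within 0.5. Acsm3, a medium-chain acyl-CoA synthetase, had levels of 8.30, 8.70, 1.25 and 8.52, and Maoa, a monoamine oxidase of the outer mitochondrial membrane, 3.94, 4.37, 0.563 and 3.67, on the Pla2g3+/+ vehicle, Pla2g3-/- vehicle, Pla2g3+/+ AOM and Pla2g3-/- AOM arrays. That both have the single low array follows from how they were chosen, as genes nearest to Agpat4. For Lpcat1 (brighter probe) the nearest were Fbp1, Acadvl, Myo1h, Fam166b and Neurl2, at 0.07 to 0.20, with 500 genes within 0.5. The log2 range of Lpcat1 was 1.48 by this probe and 0.87 by the dimmer, and that of Lpcat2 was 1.45. The dimmer Lpcat1 probe did not repeat the high Pla2g3-/- vehicle value, with a KO/WT log2 ratio of -0.16 there against 0.55. Each profile has 4 points, and the distances are a description.

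The other genes of glycerophospholipid metabolism, 56 in 8 lists, were all on the array. Between genotypes with vehicle, 1 of 54 with a value was past 2-fold (Gdpd3, 3.84). After AOM, 9 were higher and 6 lower in Pla2g3-/- than in Pla2g3+/+ mice, or 26.8% of 56, where 28.0% of all genes were past 2-fold. For AOM/vehicle 8 were higher and 10 lower of 56 in Pla2g3+/+ mice (32.1%, all genes 37.5%), and 4 higher and 6 lower of 55 in Pla2g3-/- mice (18.2%, all genes 24.8%).

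The 6 further lysophospholipid acyltransferases came closest to the members in function. After AOM, 2 of 6 were higher in Pla2g3-/- mice and 0 lower. Mboat1, an acyltransferase for lysophosphatidylethanolamine and lysophosphatidylserine, had levels of 17.5 and 18.0 with vehicle and 6.98 and 24.0 after AOM for Pla2g3+/+ and Pla2g3-/- mice. It was low on the Pla2g3+/+ AOM array, as Agpat1 and Agpat4 were, with a KO/WT log2 ratio of 1.78 after AOM and an AOM/vehicle ratio of -1.32 in Pla2g3+/+ mice. Lclat1, which acylates lysocardiolipin, had a KO/WT log2 ratio of 1.41 after AOM. Mboat2 had AOM/vehicle log2 ratios of 1.07 in Pla2g3+/+ and 1.44 in Pla2g3-/- mice. Mboat7, the lysophosphatidylinositol acyltransferase, kept levels of 1.33 to 1.43 on all arrays, and Taz (tafazzin) stayed within 2-fold.

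Upstream of the Agpat step, glycerol-3-phosphate acyltransferases make lysophosphatidic acid. Between genotypes, 0 of 4 were past 2-fold with either treatment. Gpat3 was lower after AOM in both genotypes (-1.61 in Pla2g3+/+ and -1.86 in Pla2g3-/- mice), Gpat2 was lower after AOM in Pla2g3-/- mice (-1.28) and Gpat4 kept levels of 6.05 to 7.45. Of the 5 genes of the CDP-diacylglycerol branch, which uses phosphatidic acid, Cds1 was higher in Pla2g3-/- mice after AOM (2.40), with AOM/vehicle of -1.57 in Pla2g3+/+ and 1.03 in Pla2g3-/- mice. Cds2 was lower after AOM in both genotypes (-1.18 and -1.31), as was Crls1 past 2-fold in Pla2g3-/- mice (-1.16). Of 8 phosphatidate phosphatases and diacylglycerol acyltransferases, 0 were past 2-fold between genotypes, Plpp3 was higher (1.11) and Plpp2 lower (-1.10) after AOM in Pla2g3+/+ mice, and Lpin2 was lower after AOM in Pla2g3-/- mice (-1.30).

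Of 14 genes for phosphatidylcholine, phosphatidylethanolamine and phosphatidylserine synthesis, 3 were higher and 1 lower in Pla2g3-/- mice after AOM. Chpt1, the cholinephosphotransferase of the Golgi, had levels of 3.79 and 2.85 with vehicle and 0.431 and 2.83 after AOM for Pla2g3+/+ and Pla2g3-/- mice. Like Agpat4 it was low on a single array, with a KO/WT log2 ratio of 2.71 after AOM and an AOM/vehicle log2 ratio of -3.14 in Pla2g3+/+ mice. Chkb (1.12) and Cept1 (1.06) were the others that were higher, and Etnk2 (-1.56) was lower. For AOM/vehicle, Etnk2 was higher (1.73) and Chpt1 and Ptdss2 (-1.62) lower in Pla2g3+/+ mice, and Selenoi was higher in Pla2g3-/- mice (1.47).

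Acyl-CoA synthetases supply the fatty acid that the members transfer. Of 5, Acsl3 was higher in Pla2g3-/- mice after AOM (1.51) and Acsl4, which prefers arachidonic acid, was lower (-1.39). Acsl4 levels were 1.0 and 1.16 with vehicle and 3.91 and 1.49 after AOM for Pla2g3+/+ and Pla2g3-/- mice, high on the Pla2g3+/+ AOM array. Acsl3 was 1.02 for AOM/vehicle in Pla2g3-/- mice, and Acsl5 kept levels of 2.60 to 2.77. In the platelet-activating factor pathway, to which Lpcat2 belongs, 1 of 6 genes was higher and 2 lower in Pla2g3-/- mice after AOM. The lower ones were the receptor Ptafr (-1.71) and Pla2g7 (-1.92), which breaks platelet-activating factor down, and the higher one the hydrolase Pafah2 (1.07). In Pla2g3+/+ mice AOM/vehicle was 1.96 for Ptafr, 2.45 for Pla2g7, -1.02 for Pafah2 and -1.12 for Pafah1b3, and in Pla2g3-/- mice 0 of 6 passed 2-fold. Lpcat2 was thus highest on the Pla2g3-/- AOM array, whereas Ptafr was highest, with a level of 0.117, on that of Pla2g3+/+ mice. Of 8 genes for lysophospholipid breakdown, Gdpd1 was higher in Pla2g3-/- mice after AOM (1.04), Gpcpd1 (-1.35) and Gdpd3 (-3.09) were lower, and both cytosolic lysophospholipases, Lypla1 and Lypla2, stayed within 2-fold in all 4 comparisons.

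**Figure D4:**
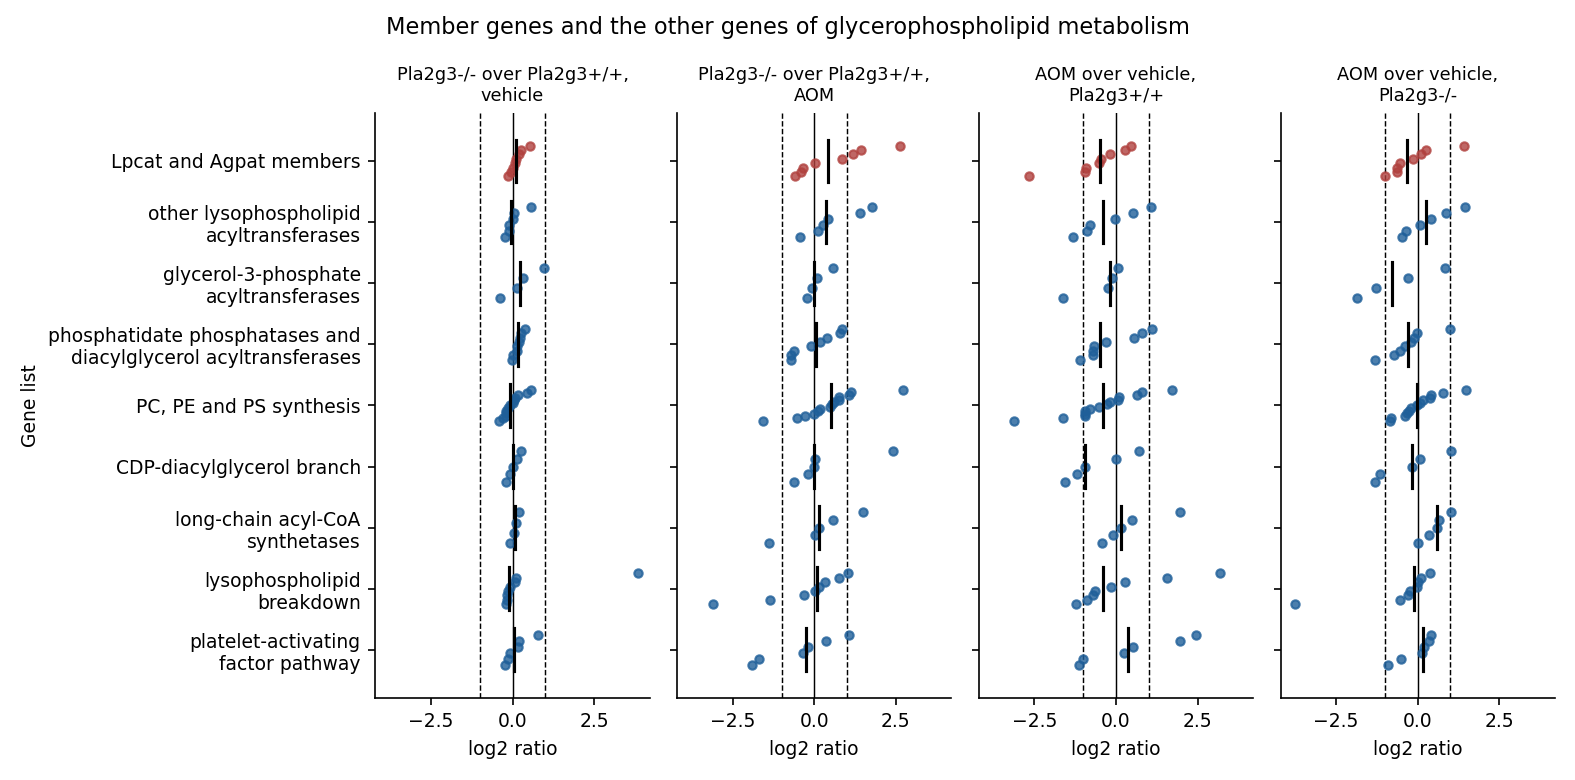
Log2 ratio of each gene (point, brightest probe) of the member set and of the 8 lists in the 4 comparisons, with a black bar at the median of each list and dashed lines at 2-fold. PC, PE and PS stand for phosphatidylcholine, phosphatidylethanolamine and phosphatidylserine. With vehicle only Gdpd3 (3.84) lies outside the lines, whereas after AOM 15.1% of all genes were over 2-fold higher and 12.9% lower in Pla2g3-/- mice.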

How the data were processed

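Total RNA of each pool (27.7 ng) was labeled with Cy3 and hybridized to the Whole Mouse Genome array. Each spot's intensity in the deposited scanner files came from Feature Extraction 11.5.1.1 and per the file headers had been background-subtracted and detrended within its array, with no scaling between arrays. The authors' value table holds a ratio, in which that intensity was divided by a constant close to the array's 75th percentile, on a linear scale and without centering. The median of that ratio was 0.108 and 0.105 on the vehicle arrays and 0.110 and 0.105 on the AOM arrays of Pla2g3+/+ and Pla2g3-/- mice.

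Groups were taken from the sample labels. Control spots and outlier spots were left out, log2 intensities of replicate spots were averaged, and the 75th percentile of the array was subtracted. Genes were named by accession, then symbol, through a RefSeq table of GRCm38.p6 (names only; coordinates are those of the array files, mm9), and each was represented by its brightest probe. Where only 1 array of a comparison was well above background, the ratio was treated as a bound. A gene past 2-fold was counted as called. The precision is limited by the number of arrays, and no p-value was computed. The ratio step was tested on simulated data.

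The alternatives were no scaling, median scaling, quantile normalization, normexp background correction (offset 50, limma 3.58.1 in R 4.3.3) with quantile or 75th percentile scaling, no filter on dim probes, only genes that were well above background on each array of a pair, the mean over probes, the dimmest probe, the deposited table, and 1.5-fold and 4-fold thresholds. A further pair of normexp fits was added after seeing the data. Tables were made with Python 3.11.15, pandas 2.3.3 and numpy 2.4.6, and figures with matplotlib 3.10.9.

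The members and all lists were chosen with earlier results of these data known. Named genes were every member probe, the pathway genes past 2-fold in any comparison with up to 2 others per list by mean signal, the 5 nearest profiles of the 2 members with the widest range, and Pla2g3. The marker lists covered epithelium, colonocytes, goblet cells, Wnt targets, smooth muscle, macrophages, neutrophils, mast cells, adipocytes, enteric neurons and glia, pancreatic acinar cells and squamous epithelium, and 1 gene of the neuron and glia list is not reported here.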

Additional observations from a re-analysis of the deposited data

Results flagged for a closer look

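A pair of genes had ratios of opposite sign beyond 1 technical error in matching comparisons. That error was 0.20, and the smallest of these ratios, 0.25, passed it by little. The differences between these ratios were not tested, since each group has 1 array. Agpat1 had an AOM/vehicle log2 ratio of -0.91 in Pla2g3+/+ and 0.25 in Pla2g3-/- mice, and without scaling between arrays the former was 0.11. Agpat3 had a KO/WT log2 ratio of 0.25 with vehicle and -0.58 after AOM. The ratio with vehicle was 0.197 with normexp and quantile normalization, within the error. It was -0.09 in the normexp fit to all spots with the 75th percentile. The AOM/vehicle log2 ratio of Agpat3 was 0.29 in Pla2g3+/+ and -0.54 in Pla2g3-/- mice, and without scaling the latter was 0.31. No Agpat3 ratio was past 2-fold.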

How the results depend on the processing

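The counts of members past 2-fold were equal to those given above with median scaling, the deposited table, dim probes unfiltered, the mean over a gene's probes, the dimmest probe and only genes that were well above background on each array of a pair. Agpat4 kept its direction and its place past 2-fold under all scalings and background corrections, from 2.46 to 2.73 for KO/WT after AOM and from -2.69 to -1.64 for AOM/vehicle in Pla2g3+/+ mice. Its AOM/vehicle ratio in Pla2g3-/- mice ranged from -0.14 to 0.71, so how close the remaining arrays lay depended on the processing. Without scaling, 2 members (Agpat3 and Lpcat3) were past 2-fold higher for AOM/vehicle in Pla2g3+/+ mice, and in Pla2g3-/- mice 2 were higher (Agpat1 and Lpcat2) and 0 lower. Here the all-gene median moved as well. For AOM/vehicle in Pla2g3-/- mice, quantile normalization left 0 lower, and normexp with quantile normalization left 0 higher and 0 lower. Normexp with the 75th percentile gave 2 members higher for KO/WT with vehicle (Lpcat1 and Lpcat2), and for AOM/vehicle in Pla2g3-/- mice 0 higher and 2 lower (Lpcat1 and Lpcat2), with Lpcat2 turned to -1.46. On the Pla2g3-/- vehicle array, 4 spots had a local background over 100 above their own signal, and the 5th percentile after normexp was 396.9 there and about 57 on the others (56.7 to 57.0). With these spots left out of the fit, a choice made after seeing the data, it was 57.0. Both calls with vehicle were then lost, Lpcat2 was 0.31 with the 75th percentile and 0.72 with quantile normalization, and for AOM/vehicle in Pla2g3-/- mice 0 were higher and 0 lower with either. A 1.5-fold threshold gave 3 lower for AOM/vehicle in Pla2g3+/+ (Agpat1, Agpat4 and Lpcat1) and 3 lower in Pla2g3-/- mice (Agpat2, Agpat5 and Lpcat1), and a 4-fold threshold left 1 higher for KO/WT after AOM (Agpat4) and 0 higher and 0 lower for AOM/vehicle in Pla2g3-/- mice. At 1.5-fold, Lpcat1 in Pla2g3-/- mice was lower by its brighter probe and not by its dimmer. Except where values are given, the cause was not tested. No paired analysis was possible because each group has 1 array. Lpcat1 and Lpcat2 lie near background, where the correction sets the ratio most, and Lpcat4 gives none. Brightness of a probe limits what these arrays can show for these 3 genes.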

Other observations

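Gdpd3, a lysophospholipase D that releases lysophosphatidic acid from lysophospholipids, had a level of 0.140 in Pla2g3+/+ and 2.02 in Pla2g3-/- mice with vehicle, and 1.28 in Pla2g3+/+ and 0.150 in Pla2g3-/- mice after AOM. It was thus high on 1 array of each genotype and of each treatment. Its KO/WT log2 ratio was 3.84 with vehicle and -3.09 after AOM. For AOM/vehicle it was 3.19 in Pla2g3+/+ and -3.74 in Pla2g3-/- mice. Gdpd3 has 1 probe on the array, and no array repeats these values.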
